A study of Mus musculus with 6 samples.

Results

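The genes described here are 10 genes of the mouse TREM and CD300 families of myeloid receptors: Trem1, Trem2, Trem3, Treml2, Treml4, Cd300a, Cd300lb, Cd300ld, Cd300lf and Tyrobp, the adaptor shared by several of them. They were taken by gene name from the probes of the array, where 18 of the 56605 probes carried 1 of these names, and they are 10 of the 37325 gene names on the array. All 10 were bright enough to be tested, among 21862 genes tested in all. Each group was hybridised to 2 Agilent mouse arrays in 1 colour, 6 in all, with RNA of cells grown in vitro from the bone marrow of female C57BL/6J mice aged 6 to 8 weeks. 6G- BM-MDSC came from marrow that had been depleted of Ly-6G+ cells with magnetic beads, and were grown for 4 days with 40 ng/mL GM-CSF. MDSC (conv.), myeloid-derived suppressor cells, came from whole marrow under the same 4 days and 40 ng/mL, and the labels say that these cultures also hold dendritic cells. DCs, bone marrow-derived dendritic cells, were grown from whole marrow for 8 days with 20 ng/mL GM-CSF in dishes not treated for adhesion, so that culture time, GM-CSF dose and cell type differ together in every comparison with DCs. Both comparisons with DCs use the same 2 DC arrays.

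TREM and CD300 receptors are single-pass membrane proteins with an immunoglobulin-like domain, carried mostly by neutrophils, monocytes, macrophages and dendritic cells. The activating members have short tails and signal through adaptors with a tyrosine-based activation motif, above all DAP12, the product of Tyrobp, which recruits the kinase SYK. The inhibitory CD300 members carry tyrosine-based inhibitory motifs that recruit the phosphatases SHP-1 and SHP-2, and several CD300 proteins bind lipids that dying cells expose.

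The 6 arrays were alike in brightness: the 75th percentile of processed intensity lay between 560 and 633, between 55.6% and 59.9% of probes were well above background, and arrays correlated across genes at 0.995 to 0.996 within a group and at 0.971 to 0.994 between groups. The number of arrays, 2 per group, limits the precision of every value. Both MDSC groups lay in the first row of the slide and DCs in the second, so a difference between rows and a difference from DCs cannot be told apart. Markers of other cells moved with the comparisons with DCs. The summed intensity of 10 neutrophil genes was 713309 to 784830 in 6G- BM-MDSC and 887068 to 906507 in MDSC (conv.), against 287495 to 318392 in DCs, and 9 of the 10 were higher in each MDSC group. The summed intensity of 10 macrophage genes was 60284.5 to 69909.6 in 6G- BM-MDSC and 67191.5 to 70950.6 in MDSC (conv.), against 103227 to 106936 in DCs, and 7 and 6 of the 10 were lower. Of 11 dendritic cell genes, 9 were lower in each MDSC group, and 1 was higher in 6G- BM-MDSC and 0 in MDSC (conv.). Their summed intensity was 397577 to 477239 in 6G- BM-MDSC and 457673 to 496425 in MDSC (conv.), against 684236 to 726055 in DCs. All 6 neutrophil precursor genes and all 6 basophil and mast cell genes were higher in either MDSC group. Of 6 monocyte genes, 3 were higher in 6G- BM-MDSC and 1 in MDSC (conv.), and 0 lower. The plasmacytoid dendritic cell and eosinophil lists, of 4 genes each, held genes higher and genes lower in each MDSC group. These values bear on every difference from DCs given here, and their part in it was not tested. In such bulk samples fewer cells of a type and less RNA per cell cannot be told apart.

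The sequences that the probes carry matter for how the signals can be read. Each probe is 60 bases long, and the first 30 bases are printed, with short tandem repeats of at least 12 bases in capitals.
Trem3, probe 1: tgtagaaggaggctcatgagacatcagtga
Trem1, probe 1: agggactgtgacctgTGTTGTTGTTGTTGT
Trem1, probe 2: gtgcagatgctgttcatctcagtaggtttg
Treml2, probe 1: gaaaggggataataattcctgcctataaag
Treml2, probe 2: acttagttgaggccaagtcttggtgcaaag
Cd300lf, probe 1: taggcccaaaatataaccacaagggtctgt
Cd300lf, probe 2: gctctgactttggccggcttgggtcaggag
Probe 1 is the brightest of a gene and stands for it. The Trem3 probe, which carries the largest difference among the 10 genes, lies at chr17:48397990-48398049 on the plus strand of mm9, holds no such repeat and shares no run of 16 bases with a probe of any other gene on the array. The brighter Trem1 probe (chr17:48385849-48385908, plus strand) holds 39 of its 60 bases in a TGT repeat and shares a run of 16 bases or more with probes of 10 other genes, whereas the dimmer Trem1 probe (chr17:48385230-48385289) shares none. The brighter Cd300lf probe (chr11:114977796-114977855, minus strand) has 18 bases of a short repeat beyond the stretch printed and shares a run with probes of 13 other genes, and its second probe (chr11:114978372-114978431) shares none. The Treml2 probes lie at chr17:48450415-48450474 and chr17:48442024-48442083 on the plus strand, and probe 2 has 12 bases of such a repeat in the stretch not printed. In all, 3 of the 18 probes held a repeat and 4 shared a run with other genes, the remaining ones being the brighter probes of Treml4 (1 other gene) and Cd300ld (2 other genes). No probes of 2 different members shared more than 9 bases in a row.

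Between 6G- BM-MDSC and MDSC (conv.), the comparison that asks what removing Ly-6G+ marrow cells at the start does, no member passed the test. None of the 10 was higher and none lower at an adjusted p under 0.05 (limma, Benjamini-Hochberg over all genes), in a comparison in which 0.00457% of all genes tested were higher and 0.00915% lower. Without adjustment 1 member, Cd300lb, had a p under 0.05, as had 2358 of all genes. The 10 differences ran between -0.03 and 0.42 on the log2 scale, 8 of them above 0, with a median of 0.13 beside 0.004 over all genes. The 95% intervals of the 10 differences reached from -0.44 to 0.72, which is the precision that 2 arrays per group gave. Whether groups overlapped was judged throughout on log2 values relative to the 75th percentile, while intensities are printed as deposited.

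Against DCs some members of both families passed the test. In 6G- BM-MDSC 4 of 10 members were higher (Trem3, Treml4, Cd300lf and Tyrobp) and 0 lower, beside 15% higher and 17.8% lower among all genes tested. In MDSC (conv.) 3 of 10 were higher (Trem3, Treml4 and Cd300lf) and 1 lower (Trem2), beside 13.4% higher and 15.8% lower among all genes. The median difference over the members was 0.19 in 6G- BM-MDSC and 0.06 in MDSC (conv.), beside -0.04 and -0.03 over all genes. Only Trem3 differed from DCs by more than 3 on the log2 scale, and the other called members differed by 0.36 to 1.27 in size.

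**Figure D1:**
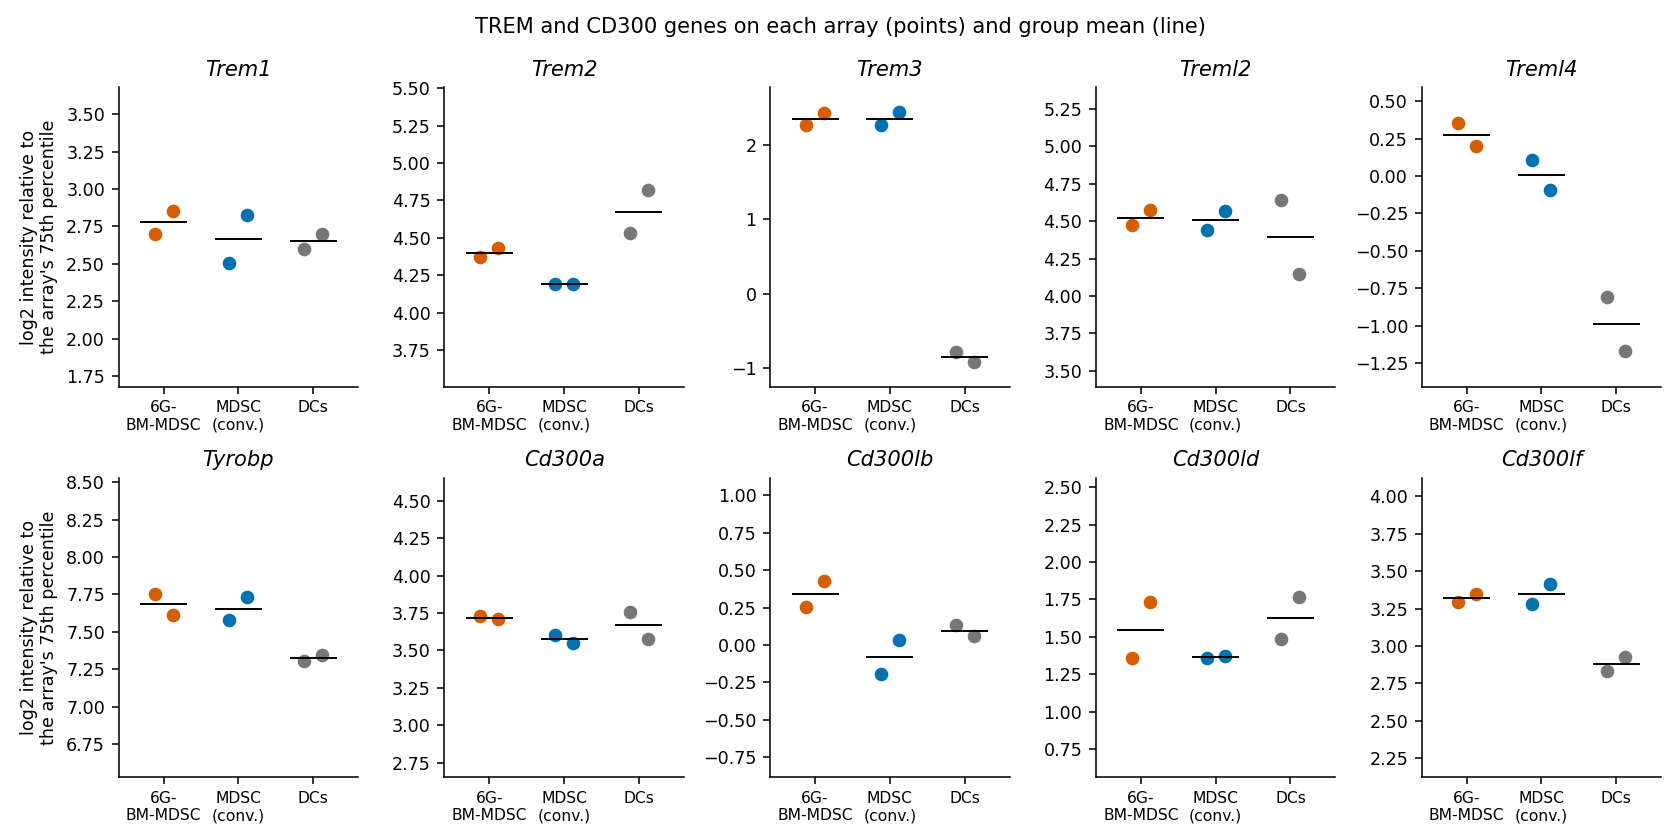
Each panel shows 1 gene by its brightest probe, with the log2 intensity relative to the array's 75th percentile on the y axis, a point for each array and a line for the mean of the 2 arrays, and with the axis range set per gene. In the panels of Trem3, Treml4, Cd300lf and Tyrobp all 4 MDSC arrays lie above both DC arrays, and in that of Trem2 both DC arrays lie above all 4 MDSC arrays.

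Trem3 encodes an activating receptor that pairs with DAP12 in mouse macrophages and is a pseudogene in humans. Its processed intensity was 3014 and 3023 in 6G- BM-MDSC and 3056 and 3422 in MDSC (conv.), against 356 and 301 in DCs. All 4 MDSC arrays were far above both DC arrays, and the values of the MDSC groups overlapped each other. On the log2 scale relative to the 75th percentile, Trem3 averaged 2.35 ± 0.11 in 6G- BM-MDSC, 2.36 ± 0.12 in MDSC (conv.) and -0.85 ± 0.09 in DCs (SD, n = 2 each). It was 9.21-fold higher in 6G- BM-MDSC than in DCs (log2 difference 3.20, SE 0.11, adjusted p = 0.000247, limma) and 9.23-fold higher in MDSC (conv.) than in DCs (log2 difference 3.21, SE 0.11, adjusted p = 0.000255). In size these differences ranked 183 and 187 among the 21862 genes. Between 6G- BM-MDSC and MDSC (conv.) the difference was -0.004, with a 95% interval from -0.28 to 0.28.

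Treml4 encodes a short-tailed receptor that associates with DAP12 and is known in mouse macrophages and dendritic cells for its part in responses through TLR7. Its intensity was 797 and 643 in 6G- BM-MDSC and 682 and 591 in MDSC (conv.), against 349 and 253 in DCs. The MDSC groups lay above DCs without overlap, at 2.41-fold in 6G- BM-MDSC (log2 difference 1.27, SE 0.15, adjusted p = 0.00514, limma) and at 1.995-fold in MDSC (conv.) (log2 difference 0.997, SE 0.15, adjusted p = 0.0109). In MDSC (conv.) the call was lost without MDSC (conv.) replicate 1 (log2 difference 0.90) and when the gene's probes were averaged (0.74). The second Treml4 probe (chr17:48404287-48404346, mm9) was well above background only in 6G- BM-MDSC, where it read 21.3 and 18.9, against 13.4 and 7.62 in MDSC (conv.). The lower bound between the group means was 1.41-fold over MDSC (conv.), and the difference did not pass the test (adjusted p = 0.448, limma). In DCs that probe read 9.69 and 4.64, not well above background, and since the bound against DCs is under 1, no fold is given.

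Tyrobp encodes DAP12, through which TREM1, TREM2, TREM3 and several activating CD300 receptors signal. Its intensity was 134683 and 109614 in 6G- BM-MDSC and 121269 and 133802 in MDSC (conv.), against 96838 and 92430 in DCs. All MDSC arrays were above both DC arrays. Tyrobp was 1.28-fold higher in 6G- BM-MDSC than in DCs (log2 difference 0.36, SE 0.09, adjusted p = 0.0423, limma). In MDSC (conv.) the log2 difference from DCs was 0.33 (SE 0.09, adjusted p = 0.0563), which did not pass the test. It passed there under 4 of 19 alternative settings, which were quantile normalization (adjusted p = 0.0337), normexp background correction (0.0227), the filter that asked for signal well above background on each of the 6 arrays (0.0433) and an intensity-dependent prior variance (0.0152). Each time 4 members in place of 3 were higher in MDSC (conv.) than in DCs. In the same order 3129 of 21862, 3298 of 21862, 2678 of 19455 and 3472 of 21862 genes were higher. In the main fit 2925 of 21862 were. The call in 6G- BM-MDSC was lost under 10 of 19 alternative settings, among them leaving out any 1 of the 6 arrays, with the difference between 0.29 and 0.50 throughout and the adjusted p between 0.0102 and 0.152. The Tyrobp probe maps to chr7:31200651-31202378 (mm9), a span of 1728 bases for 60 bases of probe, so it crosses at least 1 splice junction.

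Trem1 encodes the receptor that amplifies inflammatory responses of neutrophils and monocytes. Its intensity was 4059 and 4045 in 6G- BM-MDSC and 3602 and 4461 in MDSC (conv.), against 3722 and 3691 in DCs. The values of MDSC (conv.) overlapped both other groups. The log2 differences were 0.13 (6G- BM-MDSC versus DCs, 95% interval -0.22 to 0.47) and 0.02 (MDSC (conv.) versus DCs, -0.33 to 0.36), with adjusted p of 0.499 and 0.942 in limma. These values come from the probe with the TGT repeat. The Trem1 probe without a repeat read 495 and 514 in 6G- BM-MDSC and 595 and 465 in MDSC (conv.), against 562 and 566 in DCs, and its log2 differences from DCs were -0.16 and -0.20, with adjusted p of 0.440 and 0.367. The probes of Trem1 thus gave differences of opposite sign, and neither passed the test.

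Trem2 encodes a receptor for lipids and lipoproteins on macrophages, microglia and osteoclast precursors. Its intensity was 12919 and 12081 in 6G- BM-MDSC and 11591 and 11503 in MDSC (conv.), against 14160 and 16051 in DCs. The 3 groups did not overlap, with DCs highest and MDSC (conv.) lowest. Trem2 fell by 0.48 on the log2 scale in MDSC (conv.) relative to DCs (SE 0.12, adjusted p = 0.0357, limma). The difference between 6G- BM-MDSC and DCs was -0.27 (adjusted p = 0.130), and that between 6G- BM-MDSC and MDSC (conv.) was 0.21 (adjusted p = 0.576), neither of which passed. The call in MDSC (conv.) was lost under 8 of 19 alternative settings, including leaving out any 1 array other than DCs replicate 1, with the difference between -0.63 and -0.34.

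Treml2 encodes a receptor of B cells, macrophages and neutrophils that has no charged residue for an adaptor. Its brighter probe read 13881 and 13329 in 6G- BM-MDSC and 13771 and 14922 in MDSC (conv.), against 15287 and 10078 in DCs, where the arrays lay farther apart than those of either MDSC group. The log2 differences from DCs were 0.13 in 6G- BM-MDSC (95% interval -0.33 to 0.59) and 0.11 in MDSC (conv.) (-0.35 to 0.57), and neither passed the test. The dimmer probe gave larger differences. It read 462 and 428 in 6G- BM-MDSC and 539 and 509 in MDSC (conv.), against 329 and 212 in DCs, with no overlap. Its log2 difference from DCs was 0.75 in 6G- BM-MDSC (adjusted p = 0.0339 over all probes, limma) and 0.89 in MDSC (conv.) (adjusted p = 0.0232). Both probes of Treml2 thus gave positive differences from DCs, with overlapping 95% intervals in each MDSC group. Only the dimmer one passed the test, and no call is given for the gene. Averaged over its probes, Treml2 differed from DCs by 0.44 in 6G- BM-MDSC and 0.50 in MDSC (conv.), and passed the test in neither.

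Cd300lb encodes an activating CD300 receptor that pairs with DAP12. Its brightest probe read 743 and 754 in 6G- BM-MDSC and 553 and 644 in MDSC (conv.), against 671 and 592 in DCs. Both 6G- BM-MDSC arrays were above all others. The log2 difference between 6G- BM-MDSC and MDSC (conv.), 0.42 (SE 0.12, 1.34-fold), was the largest of the 10 members in that comparison and did not pass (unadjusted p = 0.0147, adjusted p = 0.357, limma). The second probe gave 0.07 for the same comparison (adjusted p = 0.887). The third probe, which spans 1022 bases at chr11:114786342-114787363 on the minus strand of mm9 and so crosses a splice junction, read 24.5 and 27.6 in 6G- BM-MDSC and 13.1 and 12.1 in MDSC (conv.), against 25.4 and 19.6 in DCs. It was not well above background on either MDSC (conv.) array. The lower bound between the group means was 1.83-fold for 6G- BM-MDSC over MDSC (conv.), and the difference did not pass the test (adjusted p = 0.239, limma). By that probe MDSC (conv.) lay below DCs at a log2 difference of -0.92 (adjusted p = 0.0136 over all probes, limma), a value that includes signals at background. Only 1 of the 2 DC arrays was well above background, so no bound of the fold is given. The brighter probes in MDSC (conv.) differed from DCs by -0.18 and 0.02.

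Cd300ld encodes an activating receptor of mouse myeloid cells. Its intensity was 1598 and 1866 in 6G- BM-MDSC and 1626 and 1627 in MDSC (conv.), against 1714 and 1933 in DCs. The log2 differences from DCs were -0.08 in 6G- BM-MDSC and -0.26 in MDSC (conv.), neither of which passed (adjusted p = 0.737 and 0.287, limma). The values of 6G- BM-MDSC overlapped those of DCs, while both MDSC (conv.) arrays lay below. The second probe read 527 and 499 in 6G- BM-MDSC and 510 and 614 in MDSC (conv.), against 603 and 647 in DCs, and gave -0.29 and -0.26, with no call. With normexp background correction, in place of the background subtraction of the files, Cd300ld passed in both MDSC groups, at -0.34 in 6G- BM-MDSC (adjusted p = 0.0146) and -0.26 in MDSC (conv.) (adjusted p = 0.0431).

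Of the inhibitory receptors, Cd300lf binds phosphatidylserine and ceramide and is the entry receptor of murine norovirus. Its intensity was 6119 and 5703 in 6G- BM-MDSC and 6161 and 6720 in MDSC (conv.), against 4365 and 4326 in DCs. Both MDSC groups were above DCs without overlap. Cd300lf was 1.36-fold higher in 6G- BM-MDSC (log2 difference 0.44, SE 0.09, adjusted p = 0.0195, limma) and 1.38-fold higher in MDSC (conv.) (log2 difference 0.47, SE 0.09, adjusted p = 0.0177) than in DCs. The probe that shares no run with other genes read 1213 and 1205 in 6G- BM-MDSC and 1116 and 1170 in MDSC (conv.), against 795 and 736 in DCs. Its log2 differences were 0.66 (adjusted p = 0.00675) and 0.48 (adjusted p = 0.0172), in the same direction as those of the probe with the repeat. Leaving out DCs replicate 1, DCs replicate 2 or either 6G- BM-MDSC array ended the call in 6G- BM-MDSC, and leaving out either DC array or MDSC (conv.) replicate 2 ended it in MDSC (conv.), with the differences between 0.39 and 0.49 and between 0.40 and 0.52 in those fits.

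Cd300a encodes the other inhibitory receptor, which binds phosphatidylserine and phosphatidylethanolamine. Its intensity was 8271 and 7316 in 6G- BM-MDSC and 7701 and 7365 in MDSC (conv.), against 8289 and 6786 in DCs. The groups overlapped DCs, and the differences from DCs were 0.05 in 6G- BM-MDSC (95% interval -0.18 to 0.28) and -0.09 in MDSC (conv.) (-0.32 to 0.14). The second probe gave 0.08 and -0.06. The spread between arrays was small for Cd300a and Cd300lf, with a pooled SD of 0.08 and 0.07 on the log2 scale, and widest for Treml2, with 0.21, beside a median of 0.11 over all genes.

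**Figure D2:**
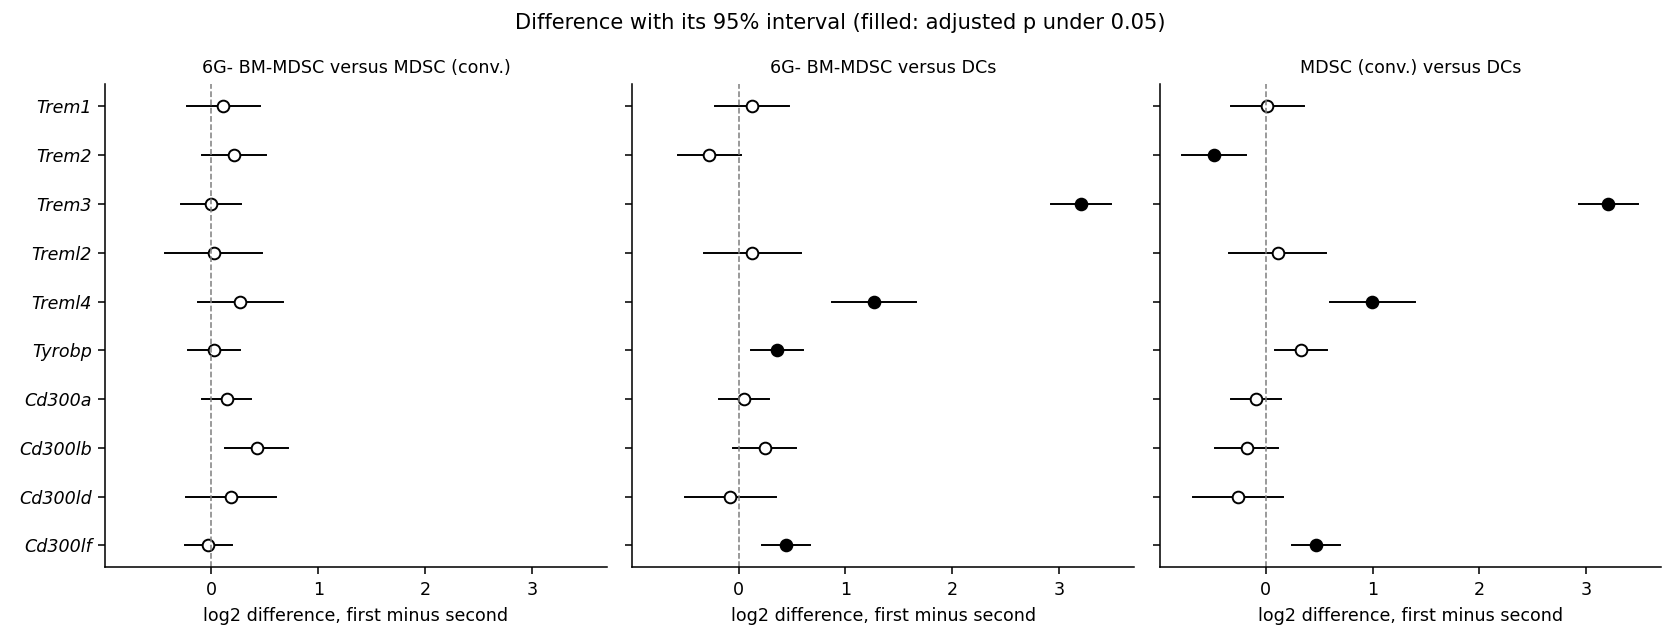
Each panel shows 1 comparison, with the log2 difference of its first minus its second group on the x axis, a point for each gene and a bar for its 95% interval, filled where the adjusted p was under 0.05. No point is filled between 6G- BM-MDSC and MDSC (conv.), and Trem3, at 3.20 and 3.21, stands apart from the other members in both comparisons with DCs.

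**Figure D3:**
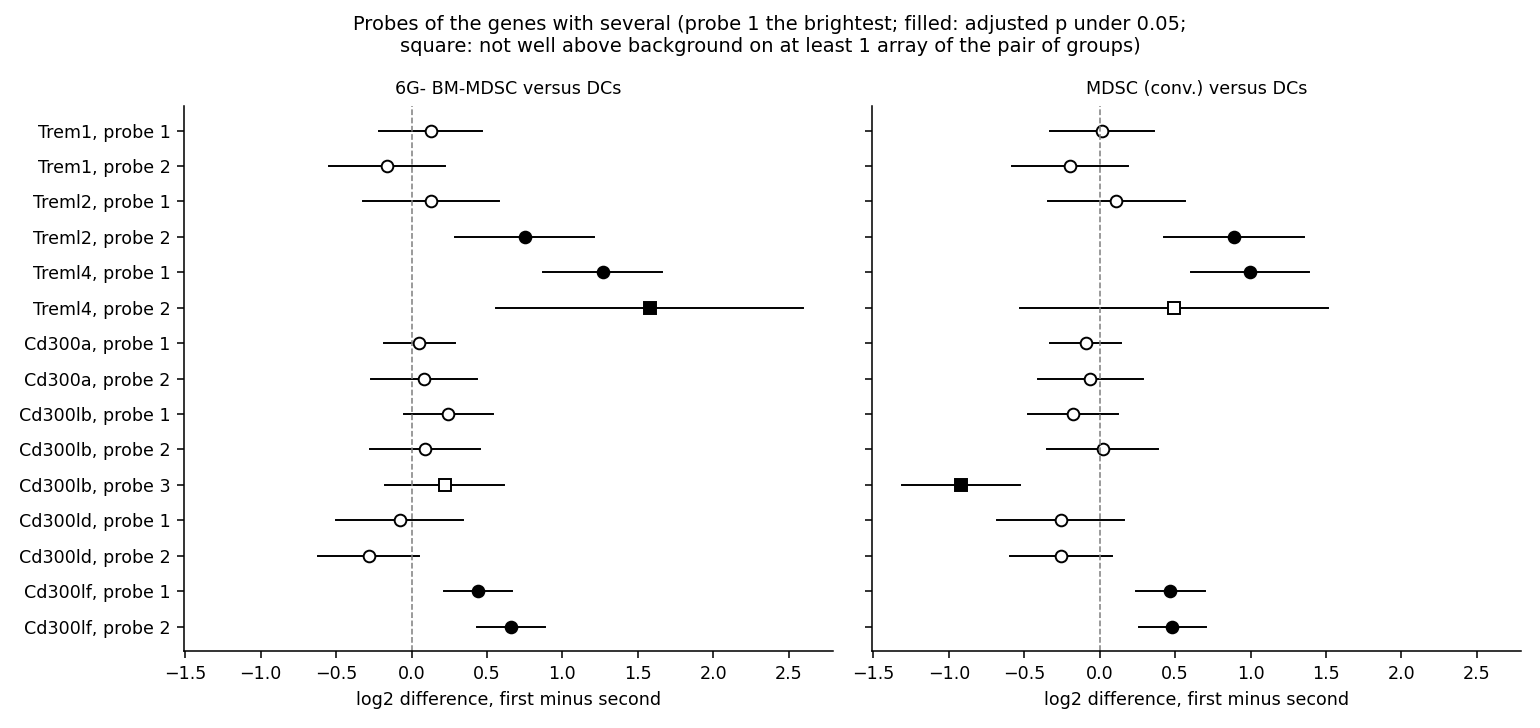
Log2 differences from DCs with 95% intervals are shown for every tested probe of the 7 genes with several, probe 1 being the brightest, with squares for probes not well above background on at least 1 array of the groups compared. The probes of Cd300lf gave like values, while those of Treml2 (0.13 and 0.75 in 6G- BM-MDSC) and Cd300lb (-0.18, 0.02 and -0.92 in MDSC (conv.)) lay farther apart.

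Apart from Tyrobp on chromosome 7, the members lie in a pair of gene clusters. On chromosome 17 the probes of Trem1, Trem3, Treml4, Treml2 and Trem2 span 106 kb of mm9, and on chromosome 11 those of Cd300a, Cd300lb, Cd300ld and Cd300lf span 216 kb. In MDSC (conv.) each cluster held genes higher and genes lower than in DCs. In 6G- BM-MDSC the cluster on chromosome 11 did, while no gene of that on chromosome 17 passed the test as lower. Of the other TREM and CD300 genes and relatives, 9 of 14 were on the array and 6 were tested. In each MDSC group 2 were higher and 3 lower than in DCs. Over all genes 15% were higher and 17.8% lower in 6G- BM-MDSC, and 13.4% and 15.8% in MDSC (conv.). Cd300e, which encodes an activating receptor of monocytes, read 266 and 187 in 6G- BM-MDSC and 487 and 372 in MDSC (conv.), against 6208 and 6296 in DCs. It was lower than in DCs by log2 differences of -4.81 and -3.97 (adjusted p = 0.000284 and 0.000454, limma), larger in size than that of any member. Elsewhere in that cluster, Cd300c (-0.94 in 6G- BM-MDSC and -1.09 in MDSC (conv.)) and Cd300c2 (-1.003 and -1.12), both activating receptors, were also lower. Cd300lf, which follows Cd300e in gene order, was higher (0.44 and 0.47). Treml1, whose product TLT-1 is a protein of platelets and megakaryocytes, read 2430 and 2256 in 6G- BM-MDSC and 1780 and 2536 in MDSC (conv.), against 203 and 317 in DCs, at log2 differences of 3.20 and 2.97 (adjusted p = 0.00254 and 0.00322). The 5 platelet and megakaryocyte markers, of which Treml1 is 1, were higher than in DCs in both MDSC groups, with a summed intensity of 23793.8 to 25295.5 in 6G- BM-MDSC and 21530.3 to 24889.6 in MDSC (conv.), against 5240.28 to 6931.29 in DCs. By its brighter probe Pigr, the transporter of polymeric immunoglobulins, was higher by 0.60 in 6G- BM-MDSC and 0.92 in MDSC (conv.). That probe read 41438 and 43020 in 6G- BM-MDSC and 57965 and 54496 in MDSC (conv.), against 28722 and 26758 in DCs. A dimmer Pigr probe was not well above background on any array, so the values of Pigr rest on the brighter probe alone. Cd300lg, known from endothelium, did not pass (0.06 and -0.24). Cd300ld3, Cd300ld4 and Fcamr were too dim to be tested.

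**Figure D4:**
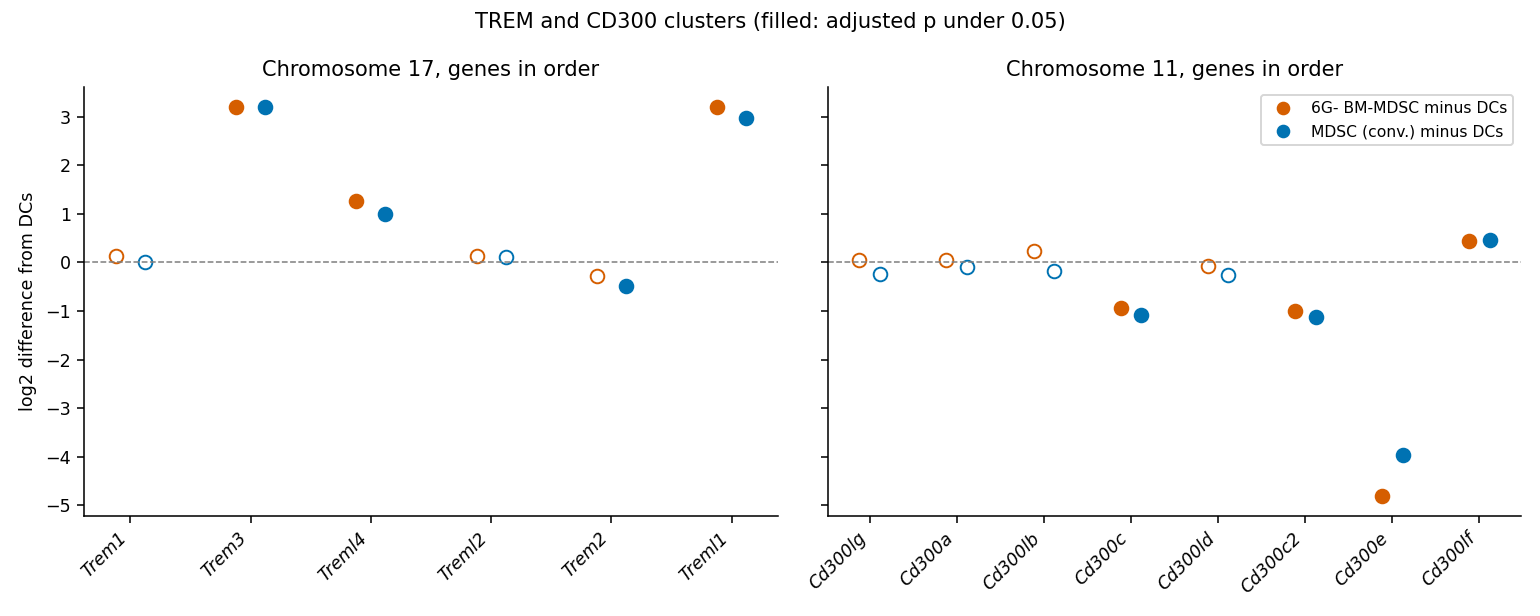
TREM and CD300 genes are set in their order along chromosome 17 (left) and chromosome 11 (right), with the log2 difference from DCs on the y axis for 6G- BM-MDSC and MDSC (conv.), filled where the adjusted p was under 0.05. Each gene is shown by its brightest tested probe. Trem3 and Treml1 lie near 3 on chromosome 17, and Cd300e lies at -4.81 and -3.97 on chromosome 11, while Cd300a, Cd300lb, Cd300ld and Cd300lg lie near 0.

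Promoters were read for the members with an entry among RefSeq promoters of GRCm38.p6, which cover 250 bases before to 50 after the start of a gene. Such an entry was matched for 7 of the 10 members, not for Trem3, Treml2 and Tyrobp. Printed are 3 promoters of members that passed the test against DCs, those of Treml4 (chr17:48264045-48264344, plus strand) and Cd300lf (chr11:115133943-115134242, minus strand), which were higher in both MDSC groups, and that of Trem2 (chr17:48346151-48346450, plus strand), which was lower in MDSC (conv.). Capitals mark the PU box GAGGAA, the core bound by the myeloid factor PU.1, and the C/EBP element TTGCNNAA, both searched on both strands.
Treml4: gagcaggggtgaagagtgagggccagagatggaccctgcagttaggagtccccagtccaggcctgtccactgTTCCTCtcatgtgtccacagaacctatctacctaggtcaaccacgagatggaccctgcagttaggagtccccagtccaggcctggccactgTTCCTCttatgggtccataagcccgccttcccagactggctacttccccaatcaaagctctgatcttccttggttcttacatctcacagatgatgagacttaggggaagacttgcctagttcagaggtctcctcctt
Cd300lf: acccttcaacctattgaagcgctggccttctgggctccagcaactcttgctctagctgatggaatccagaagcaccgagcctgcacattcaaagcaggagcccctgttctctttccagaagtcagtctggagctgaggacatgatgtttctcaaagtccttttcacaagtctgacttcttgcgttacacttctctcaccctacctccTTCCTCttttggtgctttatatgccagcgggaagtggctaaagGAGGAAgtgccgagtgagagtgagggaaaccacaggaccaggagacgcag
Trem2: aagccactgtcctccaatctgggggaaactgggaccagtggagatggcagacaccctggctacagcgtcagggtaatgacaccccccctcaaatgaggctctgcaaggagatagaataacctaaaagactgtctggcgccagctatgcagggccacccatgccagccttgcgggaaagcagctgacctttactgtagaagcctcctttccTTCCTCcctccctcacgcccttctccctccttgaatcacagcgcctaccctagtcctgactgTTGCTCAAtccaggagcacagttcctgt
The PU box was found in 6 of the 7 member promoters, all but that of Cd300lb, beside 28.3% of all 32851 promoters of the same length. In Treml4 it lies at bases 73 to 78 and 164 to 169 of the printed window, in Cd300lf at bases 208 to 213 and 251 to 256, and in Trem2 at bases 211 to 216. The C/EBP element was found in 2 of the 7, Trem2 and Cd300a, beside 10.8% of all promoters. Members that differed from DCs and members that did not both held the PU box. A match of letters is a description of the window and not a binding site.

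Genes around the receptors were counted by list in the comparisons with DCs, and none of them passed the test between 6G- BM-MDSC and MDSC (conv.). The shares over all genes, to be set beside each list, were 15% higher and 17.8% lower in 6G- BM-MDSC. In MDSC (conv.) they were 13.4% and 15.8%. Of 13 adaptors and receptors that share Tyrobp or pair with it, 6 were higher and 4 lower in 6G- BM-MDSC, and 5 were higher and 4 lower in MDSC (conv.), with median log2 differences of 0.28 and -0.20. Among the higher were Hcst, which encodes the adaptor DAP10 (log2 difference 1.27 in 6G- BM-MDSC and 0.96 in MDSC (conv.)), Clec5a, a DAP12-coupled lectin of myeloid cells (1.56 and 1.06), and Itgb3 (3.26 and 3.13), the integrin beta 3 chain that megakaryocytes also carry. Klrk1, which encodes NKG2D, was lower (-1.39 and -1.27). Of 28 signalling genes downstream of the adaptors, 4 were higher and 6 lower in 6G- BM-MDSC and 5 higher and 6 lower in MDSC (conv.). Those counts lay near the shares over all genes, and the medians were -0.11 and -0.07. The scaffold Lat was higher (1.98 and 1.89), and Src (-0.96 and -1.34), Vav2 (-0.89 and -0.91) and Card9 (-0.83 and -0.66) were lower. Of 14 phosphatases and inhibitors, 3 were higher and 5 lower in 6G- BM-MDSC and 2 higher and 4 lower in MDSC (conv.), with medians of -0.08 and -0.12. The 4 named by the rule, Dok1, Dok2, Cblb and Sh2d1b1, were all lower, at -0.62 to -1.22.

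Among 11 ligands and binding partners, 2 were higher and 5 lower in 6G- BM-MDSC and 2 higher and 4 lower in MDSC (conv.), with median log2 differences of -0.35 and -0.22. Pglyrp1, a granule protein of neutrophils and a ligand of TREM1, read 24760 and 24605 in 6G- BM-MDSC and 27450 and 29546 in MDSC (conv.), against 2586 and 2187 in DCs. That is a log2 difference of 3.37 and 3.48 (adjusted p = 0.000214 and 0.000204, limma). Its receptor Trem1 differed by 0.13 and 0.02 by the probe with the TGT repeat, and by -0.16 and -0.20 by the probe without a repeat. Apoe, a ligand of TREM2, read 499.8 and 485 in 6G- BM-MDSC and 497 and 539 in MDSC (conv.), against 1850 and 2388 in DCs, lower by log2 differences of -2.10 and -2.12 (adjusted p = 0.00186 and 0.00188). Sema6d, which engages a plexin complex with TREM2, was lower (-1.25 and -1.12) and the chaperone gene Hspd1 higher (0.48 and 0.58). Of 10 genes of the shedding of TREM2, 3 were higher and 3 lower in 6G- BM-MDSC and 2 higher and 2 lower in MDSC (conv.). The sheddase gene Adam17 (0.33 in both) and its partner Rhbdf2 (0.60 and 0.59) were higher, and the gamma-secretase subunits Aph1b (-0.51 and -0.41) and Aph1c (-0.67 and -0.53) lower.

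Readouts known for the receptors were counted in the same way. Of 13 genes that TREM1 signalling induces, 8 were higher and 0 lower in 6G- BM-MDSC and 8 higher and 1 lower in MDSC (conv.). Over all genes 15% and 13.4% were higher and 17.8% and 15.8% lower. The median log2 difference of the 13 was 1.16 and 0.84 beside the median near 0 over all genes. Cxcl2, a neutrophil chemokine, was higher by 2.17 and 1.91, Cxcl3 by 2.45 and 1.35, Ccl3 by 1.16 and 1.23, and Ptgs2, which encodes cyclooxygenase-2, by 2.25 and 1.85. Of 20 genes that depend on TREM2 in microglia, 1 was higher and 3 lower in each MDSC group, shares under those over all genes, with medians of -0.07 and -0.09. Cst7, which encodes cystatin F, was higher (2.02 and 2.31), and Apoe, Itgax (-0.88 and -0.86) and Axl (-0.65 and -0.73) were lower. Many of these genes have other inputs, and Itgax is also among the dendritic cell markers and Apoe among the macrophage markers counted above.

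**Figure D5:**
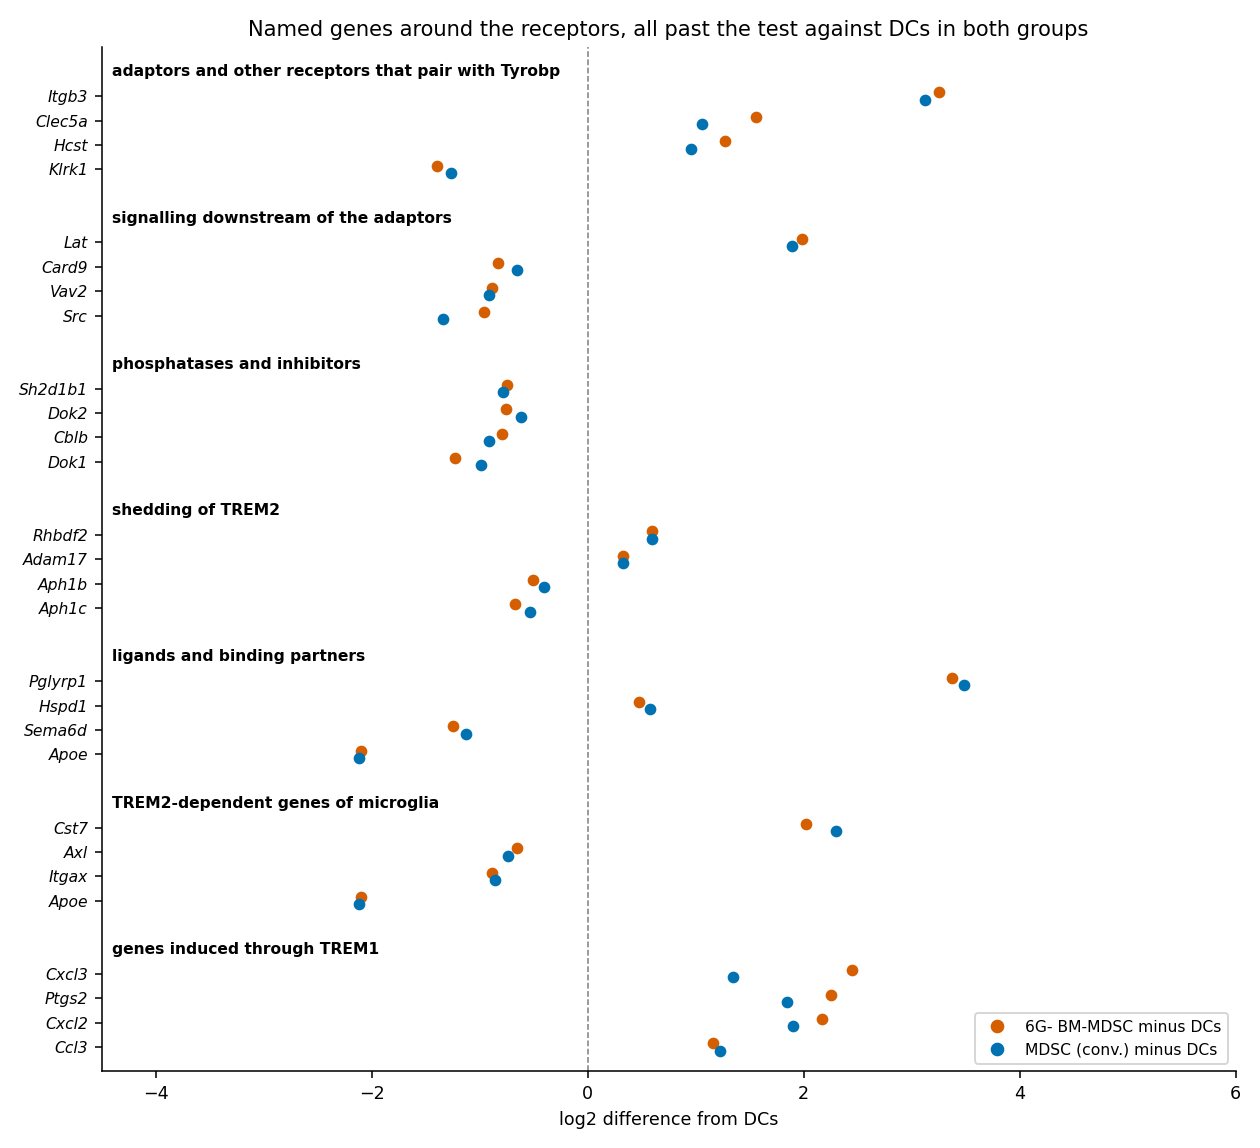
Log2 differences from DCs (x axis) are shown for the genes named from each list, with a point for 6G- BM-MDSC and a point for MDSC (conv.), all past the test in both. Pglyrp1 lies highest, at 3.37 and 3.48, and Apoe lowest, at -2.10 and -2.12.

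The genes with the most similar pattern over the 6 arrays were sought among 14034 named genes, by the root mean square of the difference between values centred per gene. For Trem1, by its probe with the TGT repeat, these were Rnf141 (0.02 on the log2 scale), Zfp317 (0.03) and Tmed10 (0.03). For Trem2 they were Jmjd7 (0.04), Dnajc12 (0.04) and Rasip1 (0.05). For Trem3, which was added after its values were seen, they were Angpt1, Csrp3 and Ifitm6 (0.09 each). The likeness is a description over 6 arrays in 3 groups.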

How the data were processed

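RNA from 6G- BM-MDSC, MDSC (conv.) and DCs was measured on 6 arrays of 1 slide. The authors extracted spot intensity with Agilent Feature Extraction (version 10.5.1.1 in the submitters' notes, 10.7.3.1 in the file headers). The deposited intensity is background-subtracted, linear and not scaled between arrays, and the deposited value table repeats it to within 0.005. Probe positions are those of the files, on mm9.

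Control spots and flagged spots (103 to 146 per array, none of a member) were left out. Values were put on the log2 scale relative to each array's 75th percentile (R 4.3.3). A probe was tested if well above background on both arrays of at least 1 group (33484 of 56605), and the brightest tested probe stood for its gene. All 6 arrays entered 1 limma 3.58.1 fit (lmFit, eBayes) with group as the only factor and 3 residual and 1.96 prior degrees of freedom. The Benjamini-Hochberg adjustment ran over 21862 genes, or over all tested probes where a dimmer probe of a gene is named. Lower bounds of a fold were set against the lowest signal well above background on each array, or the dim probe's own where higher. They concern the group means and do not allow for the spread between arrays. Scripts were tested on simulated data.

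The labels number the replicates without saying that they are separate cultures or animals, so p-values measure only the spread between these samples, which may be technical. All members were named, and from each list up to 4 genes, those past the test against DCs in both MDSC groups with the largest value of the smaller difference. The members and lists were chosen with earlier results of these data known. Gene names were updated through RefSeq accessions for 32994 probes. Alternatives tried were other normalizations, background corrections, filters, probe rules, fits and tests, and leaving out each array.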

Additional observations from a re-analysis of the deposited data

How the results depend on the processing

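The results were recomputed under 19 alternatives, 6 of which leave out 1 array. Trem3 kept its direction and its call against DCs in all of them except the methods' t-test after Benjamini-Hochberg, between 3.07 and 3.28 in 6G- BM-MDSC and between 3.04 and 3.29 in MDSC (conv.). That t-test called 0 members higher in either comparison with DCs and 0 lower in MDSC (conv.). Of all genes it called 41 higher and 25 lower in 6G- BM-MDSC and 4 and 3 in MDSC (conv.), so its count of 0 members tells little. The methods' t-test at p under 0.05 called 2 higher in 6G- BM-MDSC than in MDSC (conv.) (Trem2 and Cd300a), beside 843 of 21856 genes. It called 0 lower in MDSC (conv.) against DCs, beside 3947 of 21855 genes. With normexp background correction 1 member (Cd300ld) was lower in 6G- BM-MDSC and 2 (Cd300ld and Trem2) in MDSC (conv.) than in DCs, beside 4871 and 4639 of 21862 genes. With only the arrays of the groups compared 0 were lower in MDSC (conv.), beside 3006 of 21862 genes. With 1 array left out, a group can hold a single array, and fewer of all genes were called against DCs as well. Counts of members are therefore not given for those fits. In them Treml4 differed from DCs by 1.09 to 1.44 in 6G- BM-MDSC and by 0.82 to 1.17 in MDSC (conv.). The replicate block pairs samples only by their number (correlation of deviations 0.114, 0.125 and 0.042). It left 3 members higher in 6G- BM-MDSC than DCs, beside 3144 of 21862 genes. Tyrobp had an adjusted p of 0.0677 in that limma fit, and no other member's call changed. The causes were not tested.

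Under the alternatives, only differences that did not pass the test changed sign. With normexp they were Trem1 (-0.0187, MDSC (conv.) versus DCs) and, between 6G- BM-MDSC and MDSC (conv.), Trem3 (0.03), Treml2 (-0.0012), Cd300ld (-0.0837) and Cd300lf (0.0044). With probes of a gene averaged they were Trem1 in 6G- BM-MDSC (-0.0187) and in MDSC (conv.) (-0.0917) against DCs, and Treml2 (-0.0613) and Cd300lf (0.0747) between the MDSC groups. With 1 array left out, the differences between 6G- BM-MDSC and MDSC (conv.) ranged from -0.0474 to 0.27 for Trem1, -0.0896 to 0.0813 for Trem3, -0.0422 to 0.0815 for Treml2, -0.0477 to 0.10 for Tyrobp, -0.0075 to 0.37 for Cd300ld and -0.0946 to 0.0387 for Cd300lf. Those between 6G- BM-MDSC and DCs ranged from -0.12 to 0.38 for Treml2, -0.0389 to 0.14 for Cd300a and -0.27 to 0.11 for Cd300ld, and those between MDSC (conv.) and DCs from -0.14 to 0.17 for Trem1 and -0.14 to 0.36 for Treml2. Of the 18 member probes, 16 were well above background on all 6 arrays, and the 2 arrays per group set the precision.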
